A study of Mus musculus with 7 samples.

Results

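The induced neural stem cell (iNSC) line derived from DTA fibroblasts was compared with the other 4 iNSC libraries of the series, named pOKSM, pBKSM, mcBKSM clone 1 and mcBKSM clone 3. Values were FPKM (fragments relative to transcript length in kilobases and to library size) and were compared as log2(FPKM + 1). A gene was placed above the range when DTA exceeded the highest of the other 4 libraries by 1 log2 unit (2-fold) or more and had at least 5 FPKM in DTA. It was placed below the range when DTA was as far under the lowest of the other 4 and that lowest library had at least 5 FPKM. Of 24354 genes in the table, 10009 reached 5 FPKM in any of the 5 libraries. Of these, 441 (4.41%) lay outside the range in DTA, 306 above it (3.06%) and 135 below it (1.35%).

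The DTA fibroblasts carried Oct4-CreER together with Rosa26-loxSTOPlox-DTA, and their strain is labelled unknown. Oct4-CreER places an inducible Cre recombinase under the Oct4 (Pou5f1) gene. After Cre acts, the Rosa26 allele makes diphtheria toxin fragment A, which kills the cell that makes it. The other 4 lines and the fibroblast (MEF) library carried the same Oct4-CreER with Rosa26-loxSTOPlox-EYFP, a fluorescent reporter, on the strain C57BL/6-Pou5f1 x 129X1/SvJ. Fibroblasts came from embryonic day 13.5 embryos without head, inner organs and spinal cord, and were infected with lentivirus or retrovirus in neural stem cell medium. K, S and M in the line names are read here as Klf4, Sox2 and Myc, O as Oct4 and B as Brn4 (Pou3f4), and p and mc as polycistronic and monocistronic vectors. The vector of the DTA line and the use of Cre induction are not given in the labels. The control neural stem cells (cNSC) came from OG2/ROSA26 embryonic cortex at the same age. Each library pooled RNA of 2 to 3 biological replicates, so the values of the DTA line carry no replicate error, and its strain and toxin allele cannot be told apart from other properties of the line.

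Neural stem cells in culture divide under growth factors and can give neurons, astrocytes and oligodendrocytes. They keep a positional identity: Hox genes are expressed in nested domains along the spinal cord and hindbrain, and genes such as Dbx2, Irx3 and Nkx2-2 mark bands between its back and belly sides. Imprinted genes are read from 1 parental copy only, because DNA methylation differs between the maternal and paternal copies.

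The estimated depth was, in units of 1e6 fragments, 17.1 for DTA and 11.6 to 15.1 for the other 4 libraries. At these depths 3 fragments on a 2000-base transcript correspond to 0.0964 FPKM in DTA and to at most 0.142 FPKM in the others, counting error only, and values near that level are at the floor. The general neural stem cell markers Nes and Fabp7 were present in all 5 lines, while Prom1, described below, was under 1 FPKM in DTA. Nes, the intermediate filament nestin, was at 202 FPKM in DTA, against 189 in pOKSM, 275 in pBKSM, 145 in clone 1 and 132 in clone 3. Fabp7, a radial glia lipid carrier, was at 2725 FPKM in DTA, against 1450, 5051, 642 and 459 FPKM in the other 4 libraries in the same order. Among fibroblast markers, Col1a1, Col1a2, Dcn, Lum and Thy1 were at or under 0.3865 FPKM in DTA, against at most 0.962 FPKM in the others. Other fibroblast and matrix genes were not silent, as 20 of 33 reached 1 FPKM in any of the 5 lines. That list summed to 1764 FPKM in DTA, against 17327.5 in MEF. Counting genes that reached 5 FPKM in 1 or both libraries of a pair, DTA stood 2-fold or more apart from pBKSM at 988 genes (10.51%), from pOKSM at 1565 (16.3%), from clone 3 at 2134 (21.9%) and from clone 1 at 2132 (21.96%).

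The 5 libraries were also tested gene by gene with limma, a linear model that borrows the spread of similar genes, over 12378 genes with at least 1 FPKM in any of the 5. It called 44 genes (0.355%) at a Benjamini-Hochberg adjusted p under 0.05, 25 higher in DTA (0.202%) and 19 lower (0.153%). Of these, 22 lay above the range and 19 below it, and Tfap2a, Lrrc9 and Pax7, at 3.50 to 4.58 FPKM in DTA, were under the 5 FPKM minimum of the rule. The spread in this test came from differences between the other 4 lines and from the spread borrowed from similar genes. For genes listed at 0 in all of these 4 lines, the SE came from the borrowed spread only. The single DTA library was assumed to vary like the other 4. The range rule and limma used the same values, so a call for a gene picked by its gap adds no independent support. The count rested on single libraries: it was 3951 without pBKSM, 3 without pOKSM, 2 without mcBKSM clone 3 and 0 without mcBKSM clone 1 (1777 genes at an unadjusted p under 0.05). Without pBKSM the range counts were 747 above and 564 below, while leaving out each of the other 3 in turn gave 315 to 331 above and 141 to 145 below. Snord35a and Mir703, short RNAs that the naming rule skips, were also called: Snord35a was at 311 FPKM in DTA and listed at 0 in the other 4, and Mir703 was listed at 0 in DTA, against 157 to 539 FPKM. Just inside the rule stood Atf7 and Rims4 (1.001 log2 units above the next library each) and Efs and Rangrf (1.02 and 1.01 below it). Just outside it stood Akr1c13 and Mgat3 above (0.9996 and 0.998) and Cenpv and Abracl below (0.9997 and 0.996).

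**Figure D1:**
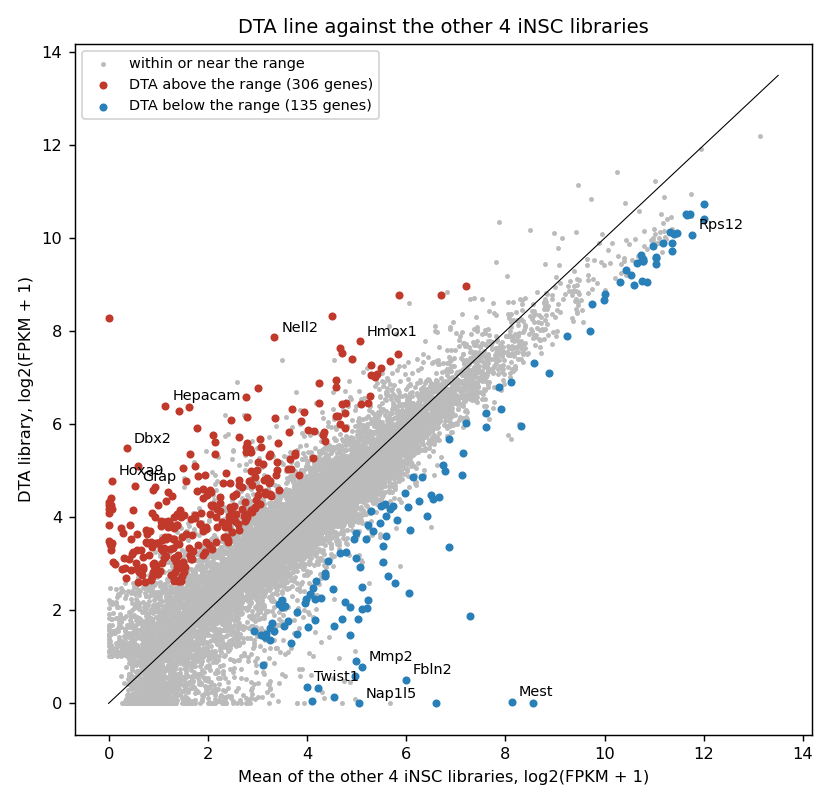
Each point is 1 gene, with log2(FPKM + 1) in the DTA library on the vertical axis and the mean of the other 4 iNSC libraries on the horizontal axis; red points are the 306 genes above the range, blue points the 135 below it, grey points all others, and the line marks equal values. The red points gather among genes that are low in the other 4 libraries, while the blue points include a string of ribosomal protein genes at the high end.

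Of the 10 named genes with the widest gap above the range, 5 were Hox genes. Of 39 Hox genes, which encode transcription factors that set position from head to tail, 29 reached 1 FPKM in any of the 5 lines, and 9 of these lay above the range and 1 below. limma called 7 of them, all higher in DTA. None of these 7 calls held under every processing setting, and none held when mcBKSM clone 1 was left out. Their differences stayed at 3.237 log2 units or more in all of these settings, so the direction held while the calls did not. The median difference of the 29, DTA minus the mean of the other 4, was 1.21 log2 units, against -0.01 over all genes tested, of which 2.47% lay above the range and 1.09% below. Members such as Hoxa9, Hoxb6, Hoxc8 and Hoxc10 passed the 1 FPKM filter only through DTA. This median and these counts therefore partly follow from the filter. The median was 2.38 log2 units against pBKSM alone, 1.04 against clone 1, 0.82 against pOKSM and 0.59 against clone 3.

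Hoxa9 was at 26.6 FPKM in DTA, against 0.165 in pOKSM, 0.0298 in pBKSM and 0 in both mcBKSM clones. Its difference was 4.72 ± 0.23 log2 units (SE, adjusted p = 0.0109 in limma). Hoxa10 was at 33.4 FPKM in DTA, against 2.62 in pOKSM, 0.0865 in pBKSM, 0 in clone 1 and 0.334 in clone 3. DTA stood apart from all 4, but the spread between pOKSM and the rest left Hoxa10 uncalled (4.51 ± 0.78, adjusted p = 0.0850 in limma). Hoxa6 was at 6.55 FPKM in DTA, against 0.128 to 0.492 in the other 4 (2.59 ± 0.27, adjusted p = 0.0547). Hoxa4, farther forward in the cluster, had the opposite order, with 2.07 FPKM in DTA, against 7.45, 11.5, 8.60 and 7.18 in pOKSM, pBKSM, clone 1 and clone 3 (-1.64 ± 0.30, adjusted p = 0.0906).

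In the Hoxc cluster the other 4 lines and cNSC were at or near 0. Hoxc8 was at 19.04 FPKM, Hoxc9 at 13.2 and Hoxc10 at 17.1 in DTA, and all of them were listed at 0 in the other 4 libraries. Hoxc6 was at 20.2 FPKM in DTA, against 0.156 in clone 3 and 0 in pOKSM, pBKSM and clone 1. These 4 genes differed by 3.83 to 4.35 log2 units on the log2(FPKM + 1) scale, with adjusted p of 0.0109 to 0.0117 in limma. Hoxc4 and Hoxc5 were at 3.16 and 1.25 FPKM in DTA, against at most 0.0577 FPKM in the others, under the level minimum of the rule. The cluster lies on chromosome 15, with Hoxc10 at 102966796 to 102971898 and Hoxc6 at 102998226 to 103011882 (RefSeq, GRCm38.p6).

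In the Hoxb cluster DTA stood apart at 2 genes. Hoxb6 was at 18.2 FPKM in DTA, against 0.0692 in pOKSM, 0 in pBKSM and clone 1 and 0.0641 in clone 3 (4.22 ± 0.21, adjusted p = 0.0109 in limma). Hoxb9 was at 9.49 FPKM in DTA, against 0 to 0.0584 in the other 4 (3.35 ± 0.21, adjusted p = 0.0136). The neighbouring Hoxb7 and Hoxb8 were not outside the range: Hoxb7 was at 14.9 FPKM in DTA, against 12.4, 0, 11.2 and 15.8 in pOKSM, pBKSM, clone 1 and clone 3, and Hoxb8 was at 19.1 FPKM in DTA, against 10.6, 0, 8.78 and 12.3 in the same order. Each Hoxb gene was listed at 0 in pBKSM, as in cNSC.

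The Hoxd cluster ran the other way at its tail end. Hoxd9 was listed at 0 in DTA and in pBKSM, against 8.61, 10.8 and 10.4 FPKM in pOKSM, clone 1 and clone 3, and Hoxd13 was at 0.101 FPKM in DTA, against 15.5, 0.0372, 11.5 and 18.6 in pOKSM, pBKSM, clone 1 and clone 3. DTA and pBKSM were both low here, so neither gene lay outside the range. Hoxd8 was at 13.8 FPKM in DTA, against 10.2, 0, 12.02 and 15.98 in the same 4 libraries. The MEF library had Hoxc6 at 7.31 FPKM, Hoxb9 at 10.4 and Hoxa9 at 0.0212, and cNSC had 0 for these genes. Halr1, a long noncoding RNA near the start of the Hoxa cluster that was named after its values were seen, was at 15.9 FPKM in DTA, against 1.25 to 2.25 in the other 4.

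**Figure D2:**
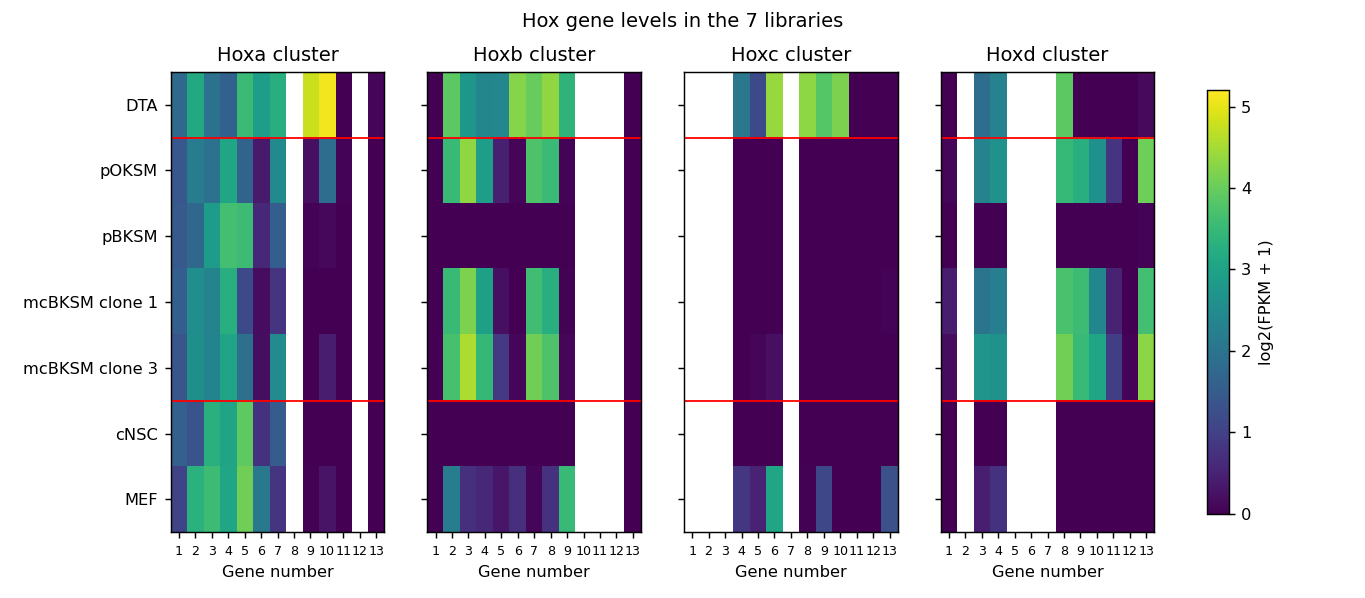
Each column is 1 Hox gene by its number in its cluster and each row 1 library; colour gives log2(FPKM + 1), white marks numbers with no gene in the table, and red lines part the DTA library, the other 4 iNSC libraries and the cNSC and MEF libraries. DTA shows Hoxa9, Hoxa10, Hoxb6, Hoxb9 and Hoxc6 to Hoxc10, which are at or near 0 in the other 4 but for Hoxa10 in pOKSM, and lacks Hoxd9, Hoxd10 and Hoxd13, which are present in pOKSM and both mcBKSM clones.

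Genes that pattern the neural tube from back to belly also differed, in both directions. In the list 33.3% lay above the range and 6.67% below, against 2.47% and 1.09% over all genes tested. Dbx2 and Irx1 passed the 1 FPKM filter only through DTA, so the share above partly follows from the filter. Of 15 tested members of this list, 5 lay above the range and 1 below, limma called 3 higher and 0 lower, and the median difference was 1.31 log2 units; the list was written after values had been seen. Dbx2, a homeobox repressor of the middle of the tube, was at 43.9 FPKM in DTA, against 0.379 in pOKSM, 0.164 in pBKSM, 0.734 in clone 1 and 0 in clone 3. It had the widest gap of the named genes above the range, 4.69 log2 units to the next library. Its difference from the mean of the other 4 was 5.12 ± 0.36 log2 units (SE in limma). The cNSC library, at 26.7 FPKM, shared the high level of Dbx2. Irx1, an Iroquois homeobox gene, was at 17.2 FPKM in DTA, against 0.0841 and 0.0911 in pOKSM and pBKSM and 0 in both clones (4.12 ± 0.22, adjusted p = 0.0109). Its relatives Irx3 and Irx5 also lay above the range, at 13.2 and 15.9 FPKM in DTA, against 0.203 to 4.58 and 5.13 to 6.51 FPKM in the others. Neither was called. These levels were not particular to DTA: Irx1 was at 15.0 FPKM in cNSC and 18.8 in MEF. Irx3 was at 10.2 FPKM in cNSC and 1.09 in MEF, and Irx5 at 11.5 in cNSC and 11.1 in MEF.

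Pax7, a factor of the back side, was at 3.50 FPKM in DTA, against at most 0.0387 in the others (2.15 ± 0.21, adjusted p = 0.0485 in limma). Nkx2-2, a factor of the belly side, was at 3.23 FPKM in DTA, against 28.8, 15.0, 40.7 and 34.8 in pOKSM, pBKSM, clone 1 and clone 3. All 4 libraries stood above DTA for Nkx2-2, which limma did not call (-2.78 ± 0.55, adjusted p = 0.0999), and cNSC, at 3.39 FPKM, stood beside DTA. Of 12 tested forebrain genes none lay outside the range, with a median difference of -0.81 log2 units. Over all genes tested 2.47% lay above and 1.09% below. Dlx1, a factor of forebrain interneurons, was at 1.57 FPKM in DTA, against 12.98, 2.11, 10.9 and 19.4 FPKM in pOKSM, pBKSM, clone 1 and clone 3, and Dlx2 was at 0.228 against 0.449 to 6.76 FPKM.

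**Figure D3:**
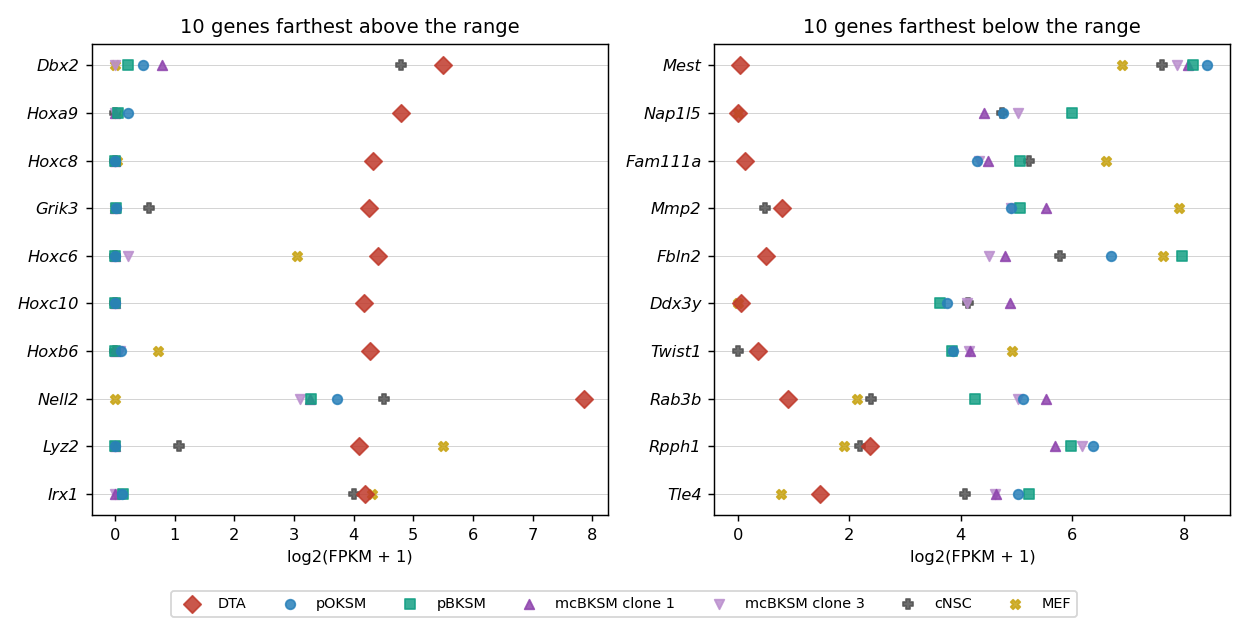
Each row is 1 of the 10 named genes with the widest gap above (left) or below (right) the range of the other 4 iNSC libraries, and each symbol 1 library on the log2(FPKM + 1) scale. On the left the other 4 libraries sit at or near 0 for every gene but Nell2; on the right DTA sits at or under 0.732 FPKM for 7 of the 10, and Mest has the widest gap of all.

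Astrocyte genes were the cell type list with the largest share above the range (36.8%, against 2.47% over all genes tested). Their share below was 5.26%, against 1.09%. Among them Aqp4 passed the 1 FPKM filter only through DTA. Of 19 tested members, 7 lay above and 1 below, limma called 1 higher and 0 lower, and the median difference was 1.39 log2 units. Gfap, the astrocyte intermediate filament, was at 24.5 FPKM in DTA, against 0.538 in pOKSM, 1.70 in pBKSM, 0.0526 in clone 1 and 0 in clone 3. Its level in cNSC was far higher, 374 FPKM, and limma did not call it (4.14 ± 0.61, adjusted p = 0.0732). Aqp4, the water channel of astrocyte end-feet, was at 12.7 FPKM in DTA, against 0.226, 0.560, 0.0409 and 0.0300 in pOKSM, pBKSM, clone 1 and clone 3, and was called (3.51 ± 0.32, adjusted p = 0.0422). Slc1a2, a glutamate transporter, was at 19.4 FPKM in DTA, against 0.790 to 2.29 in the others, and Clu, a secreted chaperone, at 12.1 against 0.451 to 1.17. Gja1, the gap junction protein connexin 43, was the exception, at 11.04 FPKM in DTA, against 50.5, 35.7, 54.7 and 49.7 in pOKSM, pBKSM, clone 1 and clone 3. More astrocytes and more astrocyte RNA per cell cannot be told apart in bulk RNA.

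The list was not uniform against every line: the median difference was 0.10 log2 units against pBKSM alone and 1.53 to 2.38 against the other 3 libraries one by one. S100b was at 4.31 FPKM in DTA, against 2.99, 61.5, 0.0450 and 0 in pOKSM, pBKSM, clone 1 and clone 3, so DTA lay within the range for this astrocyte marker. Hepacam, Mt3 and Kcnj10 were picked after their values were seen, because they lay above the range, and are given as single genes. Hepacam, a glial adhesion protein, was at 83.4 FPKM in DTA, against 1.53, 7.40, 0.0230 and 0.101 in pOKSM, pBKSM, clone 1 and clone 3. Mt3, a brain metallothionein, was at 321 FPKM in DTA, against 14.2 to 42.1 in the others, and Kcnj10, an inward potassium channel, at 53.9 against 0.591 to 5.45.

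Neural stem cell genes gave 4 of 34 tested members above the range, 0 below and 0 called, with a median difference of 0.42 log2 units. The share above was 11.8%, against 2.47% over all genes tested. Hes5, a Notch target that holds cells undifferentiated, was at 69.6 FPKM in DTA, against 11.99, 16.7, 4.02 and 8.51 in pOKSM, pBKSM, clone 1 and clone 3. Tnc, a matrix protein, was at 185 FPKM in DTA, against 11.2 to 56.5, and Slc1a3, the radial glia glutamate transporter, at 437 against 29.5 to 168. The stem cell surface gene Prom1 had the opposite order, at 0.345 FPKM in DTA, against 9.65, 2.06, 9.18 and 11.7 in pOKSM, pBKSM, clone 1 and clone 3.

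Of 12 tested oligodendrocyte lineage genes, 2 lay above and 1 below, with 0 called. In this list 16.7% lay above and 8.33% below, against 2.47% and 1.09% over all genes tested. Lhfpl3 was at 24.3 FPKM in DTA, against 0.347 to 1.64 in the other 4, and Bcas1, expressed in early myelinating cells, at 109 against 1.36 to 40.9. The lineage markers Sox10 and Mbp were at or under 0.196 FPKM in DTA, and Pdgfra was at 0.902 FPKM in DTA, against 6.995, 1.06, 8.07 and 8.12 in pOKSM, pBKSM, clone 1 and clone 3.

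Neuronal genes leaned lower: of 18 tested, 0 lay above the range and 1 below, 0 were called, and the median difference was -1.21 log2 units. Syt1, the calcium sensor of synaptic vesicles, was at 0.511 FPKM in DTA, against 41.5 in pOKSM, 9.55 in pBKSM, 43.0 in clone 1 and 46.4 in clone 3 (-4.36 ± 0.92, adjusted p = 0.112 in limma). Rbfox3, the neuronal splicing factor NeuN, was at 0.497 FPKM in DTA, against 19.9, 1.62, 29.7 and 25.97 in the same 4 libraries. The median difference of the list was -0.10 log2 units against pBKSM alone and -1.60 to -1.31 against the other 3. Its share below the range was 5.56%, against 1.09% over all genes tested. 2 genes outside that list, taken from the widest gaps above the range, were called higher in DTA: Nell2, a secreted guidance protein, was at 232 FPKM in DTA, against 12.1, 8.78, 8.63 and 7.58 in pOKSM, pBKSM, clone 1 and clone 3 (4.52 ± 0.27, adjusted p = 0.0131), and Grik3, a kainate receptor subunit, at 18.1 FPKM in DTA, against at most 0.00991 in the others (4.25 ± 0.21, adjusted p = 0.0109). cNSC had 21.8 FPKM of Nell2 and 0.485 of Grik3.

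**Figure D4:**
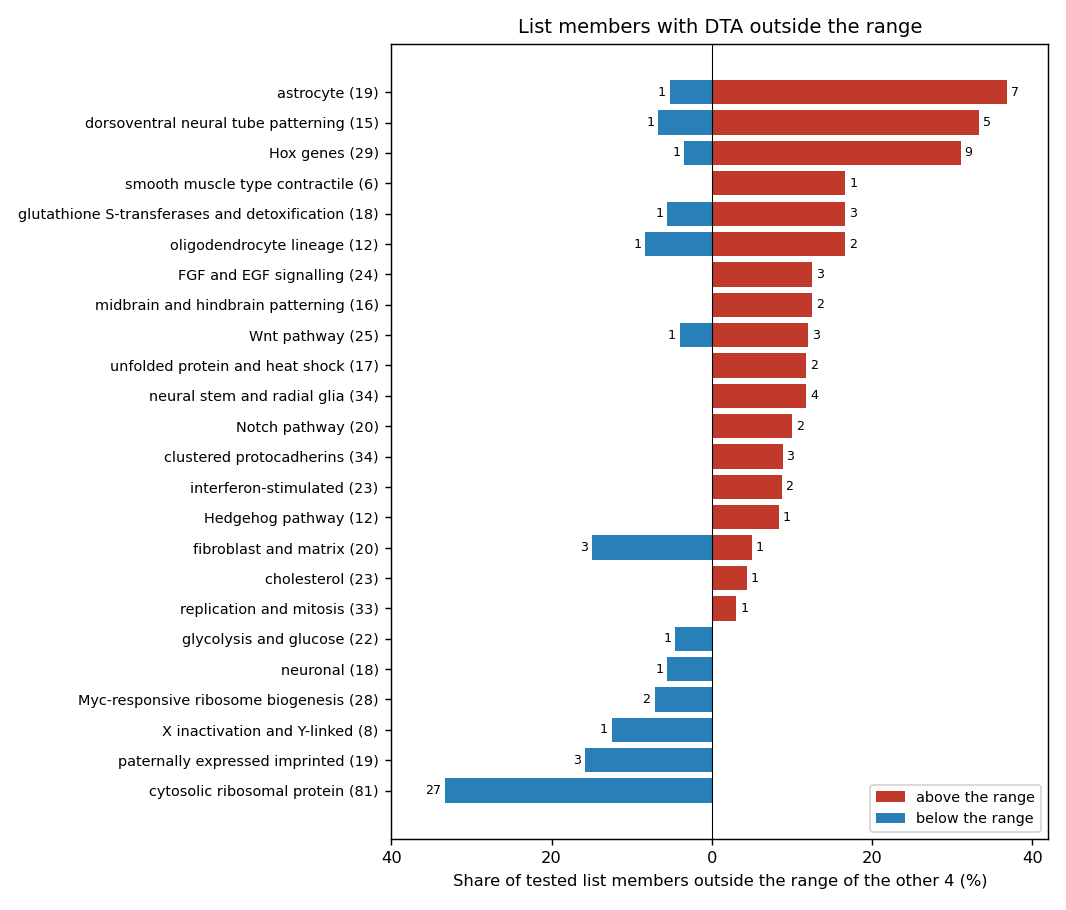
Bars give the share of tested members of each gene list that lay above (red, right) or below (blue, left) the range of the other 4 iNSC libraries, with the number of members beside each bar and the number tested in brackets. Over all 12378 genes tested the shares were 2.47% above and 1.09% below; astrocyte, dorsoventral and Hox lists reach farthest to the right and ribosomal protein genes farthest to the left.

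Paternally expressed imprinted genes included the widest gap of the comparison among named genes. Mest, which encodes a hydrolase-like protein of the endoplasmic reticulum, was at 0.0263 FPKM in DTA, against 340 in pOKSM, 286 in pBKSM, 269 in clone 1 and 233 in clone 3 (mean 282 ± 44.8, SD, n = 4). The difference was -8.09 ± 0.23 log2 units (adjusted p = 0.00269 in limma, the smallest of the fit, shared with Snord35a). The DTA value was under the 3-fragment floor, while cNSC had 195 FPKM and MEF 117. Nap1l5, a single-exon gene of a histone chaperone family, was listed at 0 in DTA, against 25.98, 62.5, 20.3 and 31.5 FPKM in pOKSM, pBKSM, clone 1 and clone 3 (-5.04 ± 0.61, adjusted p = 0.0627). Ndn, which encodes necdin, was at 3.55 FPKM in DTA, against 24.6, 38.9, 22.7 and 21.8 in the same 4 libraries (-2.58 ± 0.36, adjusted p = 0.0649).

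These 3 of 19 tested members (15.8%) lay below the range, against 1.09% over all genes tested, and 0 lay above. The median difference of the list was -0.47 log2 units. Other members overlapped or went the other way, such as Peg3 at 22.7 FPKM in DTA, against 6.85, 15.5, 2.16 and 2.95 in pOKSM, pBKSM, clone 1 and clone 3, and Snrpn at 30.3 against 7.97 to 25.1. Of 8 tested maternally expressed genes, 0 lay outside the range. Copg2, which is read from the strand opposite Mest and overlaps its end, was at 25.2 FPKM in DTA, against 14.1 to 20.9 in the other 4; whether the counting used strand is not given in the sources used here.

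The start regions of these 3 genes are shown because imprinted start regions are known for parent-specific methylation at CG sites, here in capitals. RefSeq places them at chr6:30737800-30738099 (+ strand) for the second of 3 listed Mest starts, chr6:58907077-58907376 (- strand) for Nap1l5 and chr7:62348027-62348326 (+ strand) for Ndn, on GRCm38.p6, each from 250 bases before to 50 after the start.
Mest: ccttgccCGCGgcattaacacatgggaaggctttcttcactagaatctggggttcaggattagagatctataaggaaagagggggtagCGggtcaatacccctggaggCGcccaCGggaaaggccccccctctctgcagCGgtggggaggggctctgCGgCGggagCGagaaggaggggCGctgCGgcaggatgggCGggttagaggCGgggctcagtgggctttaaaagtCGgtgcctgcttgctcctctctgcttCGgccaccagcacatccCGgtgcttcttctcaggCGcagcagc
Nap1l5: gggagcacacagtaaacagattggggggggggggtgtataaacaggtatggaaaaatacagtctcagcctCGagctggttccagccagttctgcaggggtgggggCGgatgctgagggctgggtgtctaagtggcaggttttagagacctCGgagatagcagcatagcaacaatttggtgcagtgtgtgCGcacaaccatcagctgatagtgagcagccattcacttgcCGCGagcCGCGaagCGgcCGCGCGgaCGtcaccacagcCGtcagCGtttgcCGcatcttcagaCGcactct
Ndn: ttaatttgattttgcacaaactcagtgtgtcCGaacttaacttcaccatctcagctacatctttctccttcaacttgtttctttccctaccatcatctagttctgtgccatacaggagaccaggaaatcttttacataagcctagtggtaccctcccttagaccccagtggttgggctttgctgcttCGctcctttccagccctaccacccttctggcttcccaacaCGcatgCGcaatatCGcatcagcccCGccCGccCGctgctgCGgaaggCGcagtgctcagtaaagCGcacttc
The motif searched was CG, which reads the same on both strands. The Mest and Nap1l5 windows shown hold 17 CG each, more than 68.6% of 32851 promoter windows of this length, and the Ndn window holds 11, more than 58.6%; the median window holds 7. The window of the first listed Mest start holds 8 CG, more than 51.35%, and that of the third, which nearly coincides with the one shown, holds 17. DNA methylation was not measured in this series.

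Fibroblast and matrix genes gave 3 of 20 tested members below the range and 1 above, with 2 called lower in DTA. Mmp2, a matrix-cutting protease, was at 0.732 FPKM in DTA, against 29.0 in pOKSM, 32.4 in pBKSM, 45.2 in clone 1 and 29.0 in clone 3 (-4.31 ± 0.30, adjusted p = 0.0175 in limma). Twist1, a mesenchymal transcription factor, was at 0.280 FPKM in DTA, against 13.6, 13.4, 16.9 and 16.7 in the same libraries (-3.65 ± 0.23, adjusted p = 0.0136). Both genes stood well above these values in MEF, at 240 and 29.4 FPKM, and at 0.404 and 0 FPKM in cNSC. Fbln2, a matrix scaffold protein, was at 0.420 FPKM in DTA, against 102, 249, 26.9 and 21.8 in pOKSM, pBKSM, clone 1 and clone 3 (-5.49 ± 1.43, adjusted p = 0.146). Fn1, fibronectin, was the 1 member above, at 43.0 FPKM in DTA, against 5.203, 9.08, 7.29 and 4.36 in the same order, and 516 in MEF. The summed level of the list was 1764 FPKM in DTA, against 1118 to 2032 in the other 4. Its share below the range was 15%, against 1.09% over all genes tested, and its share above was 5%, against 2.47%.

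Further genes below the range belonged to none of the lists. Col4a1, a basement membrane collagen, was at 9.37 FPKM in DTA, against 44.4, 53.4, 43.5 and 40.4 in pOKSM, pBKSM, clone 1 and clone 3 (-2.15 ± 0.19, adjusted p = 0.0419 in limma). Tle4, a Groucho corepressor, was at 1.77 FPKM in DTA, against 31.8, 36.5, 23.7 and 23.4 (-3.41 ± 0.31, adjusted p = 0.0419), and Fam111a, a replication-linked protease, at 0.0963 against 18.5, 32.2, 21.5 and 19.2 (-4.41 ± 0.35, adjusted p = 0.0273). For each of the 3, DTA was far under the closely grouped other lines, and for Fam111a it was also under cNSC at 36.2 and MEF at 95.8 FPKM. Rab3b, a vesicle GTPase, was at 0.871 FPKM in DTA, against 33.6, 18.1, 45.1 and 31.6 in the 4 libraries, without a call (adjusted p = 0.0627).

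Lyz2, the lysozyme gene of macrophages, was at 16.1 FPKM in DTA and listed at 0 in the other 4 libraries (4.10 ± 0.21, adjusted p = 0.0109 in limma), with 44.0 FPKM in MEF. Of 15 microglia and blood genes, 4 were tested and Lyz2 was the only one outside the range. The summed level of the list was 22.002 FPKM in DTA, against 2.47 to 10.4 in the others. The microglia genes Aif1, Cx3cr1, C1qa, C1qb and C1qc were listed at 0 in all 5 lines, and Tyrobp was at 1.78 FPKM in DTA and 0 in the others. Further members had RNA in the other lines, as the sums show, and are not given here. Of the 4 tested, DTA was the highest of the 5 in 3 and the lowest in 1, with a median difference of 1.03 log2 units. Lyz2 and Tyrobp reached 1 FPKM only in DTA, so its first place for these genes was fixed by the filter. No conclusion about the list is drawn from this order or median. Casp12, a caspase of the endoplasmic reticulum, was at 16.8 FPKM in DTA, against 0.588, 0.707, 0.330 and 0.0606 in pOKSM, pBKSM, clone 1 and clone 3 (3.67 ± 0.34, adjusted p = 0.0430).

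Genes of the Y chromosome and of the Rosa26 locus separated DTA from the other lines. Ddx3y, a Y-linked RNA helicase, was at 0.0391 FPKM in DTA, against 12.5, 11.4, 28.3 and 16.2 in pOKSM, pBKSM, clone 1 and clone 3 (-4.04 ± 0.52, adjusted p = 0.0638 in limma). Kdm5d and Uty, a pair of Y-linked demethylase genes, were listed at 0 in DTA, against 3.52 to 8.73 and 2.39 to 5.60 FPKM in the others. All 3 were at 0 in MEF, and Xist, the RNA that coats the inactive X chromosome, was at 0.0821 FPKM in DTA, against at most 0.0125 in the others. The sex of the embryos behind DTA is not given in the labels, and cNSC, whose strain label names female mice, had 16.4 FPKM of Ddx3y. Gt(ROSA)26Sor, the noncoding transcript of the locus that holds the toxin or reporter allele, was named after its values were seen: it was at 4.13 FPKM in DTA, against 18.2, 15.4, 14.01 and 15.2 in the other 4 libraries (-1.69 ± 0.21, adjusted p = 0.0627). It was at 4.01 FPKM in cNSC, whose genotype label also names ROSA26, and at 8.16 FPKM in MEF.

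Of the reprogramming factor genes none was called or lay outside the range. Pou5f1 was listed at 0 in DTA, against 0.202, 0, 0.398 and 0.187 FPKM in pOKSM, pBKSM, clone 1 and clone 3. Myc was at 50.1 FPKM in DTA, against 339, 78.9, 450 and 485 in the same order (-2.44 ± 1.07, adjusted p = 0.286 in limma). Sox2 was at 106 FPKM in DTA, against 277, 87.6, 342 and 390, and Pou3f4 at 24.1 FPKM in DTA, against 2.26, 19.99, 0 and 0. For these 3 genes DTA and pBKSM lay on one side and pOKSM and both clones on the other. Klf4 was at 6.92 FPKM in DTA, against 5.199 to 16.6, and Pax6, a neural progenitor factor, at 12.6 against 5.33 to 8.75, the highest of the 5. Olig2 and Sox1, at 193 and 8.39 FPKM in DTA, lay inside the range of 59.5 to 423 and 2.31 to 27.7 FPKM.

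Ribosomal protein genes made up the largest group below the range, with 33.3% of the tested list below, against 1.09% over all genes tested. Of 81 tested cytosolic ribosomal protein genes, a list added after values were seen, 27 lay below the range and 0 above, DTA was the lowest of the 5 in 78, and limma called 2 lower; over all genes tested DTA was the lowest in 29.6%. The median difference was -1.11 log2 units. Rps12 was at 1077 FPKM in DTA, against 3374, 3215, 3776 and 3497 in pOKSM, pBKSM, clone 1 and clone 3 (-1.68 ± 0.16, adjusted p = 0.0473 in limma), and Rps15a at 60.9 FPKM in DTA, against 191, 188, 199 and 202 (-1.66 ± 0.12, adjusted p = 0.0195). The other lines were close together and DTA stood apart, next to cNSC with 1007 and 53.9 FPKM. The sum over the list was 60101 FPKM in DTA, against 125213 to 136911 in the other 4, 56964 in cNSC and 89537 in MEF. Ribosomal protein genes have many near-identical pseudogene copies, which makes single values uncertain. With quantile normalization 2 of the 81 lay below the range and the median difference was -0.37, and with values centred by transcript length 7 lay below and the median was -0.86.

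Of 28 tested ribosome biogenesis genes that Myc is known to raise, 0 lay above the range and 2 below. The share below was 7.14%, against 1.09% over all genes tested. DTA was the lowest of the 5 in 24, against the same 29.6% over all genes. Npm1, nucleophosmin, was at 541 FPKM in DTA, against 1770, 1314, 2057 and 1807 in pOKSM, pBKSM, clone 1 and clone 3, and Ptma, prothymosin, at 633 FPKM in DTA, against 1363 to 1412. Neither was called (adjusted p = 0.0799 and 0.0569 in limma), and with quantile normalization neither lay outside the range. Eef2, the elongation factor that the toxin inactivates, was at 936 FPKM in DTA, against 1352, 1432, 1574 and 1428 in the other 4 libraries (-0.63 ± 0.15, adjusted p = 0.127). DTA was the lowest of the 5 for Eef2 as deposited, and the sign turned with quantile normalization (0.26). Of 8 genes of the toxin's target and of the diphthamide modification on it, 0 lay outside the range. Over all genes tested 2.47% lay above and 1.09% below, so a count of 0 in 8 genes says little. DTA was the lowest of the 5 in 5 of these 8 (62.5%, against 29.6% over all genes), with a median difference of -0.40 log2 units.

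Several signalling genes lay above the range without a call. Of 24 FGF and EGF signalling genes, 3 lay above (12.5%) and 0 below, where over all genes tested 2.47% lay above and 1.09% below. Dusp4, a phosphatase that shuts off ERK, was at 35.5 FPKM in DTA, against 5.53, 8.85, 8.08 and 6.18 in pOKSM, pBKSM, clone 1 and clone 3, Hbegf, an EGF receptor ligand, at 25.1 against 4.52 to 5.99, and Errfi1, an EGF receptor inhibitor, at 12.5 against 2.52 to 3.81. Of 25 Wnt genes, 3 lay above (12%) and 1 below (4%). Lgr5, a Wnt-enhancing receptor, lay above at 18.3 FPKM in DTA, against 0.266 to 4.28. Axin2, a Wnt target, was at 22.4 against 0.866 to 8.67, and Fzd9, a receptor, at 75.3 against 8.22 to 32.7. Tcf7l2, a Wnt effector, lay below the range at 5.96 FPKM in DTA, against 13.5 to 25.3, but not with values centred by transcript length (-1.49 log2 units in place of -1.57). Of 20 Notch genes, Hes5 and Nrarp lay above the range (10%) and 0 below.

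Stress and detoxification genes lay on both sides of the range. Hmox1, which degrades haem, was at 220 FPKM in DTA, against 27.9, 47.3, 35.9 and 23.01 in pOKSM, pBKSM, clone 1 and clone 3 (2.73 ± 0.40, adjusted p = 0.0722 in limma). Gstm1 was at 437 FPKM in DTA, against 70.9 to 151, while its relative Gstm5 was at 15.3 against 66.9 to 117; reads of such related genes can be split between them. Ddit3, the stress factor CHOP, was at 39.1 FPKM in DTA, against 7.41 to 10.99. Of 22 tested p53 target list genes, 0 lay outside the range, with Cdkn1a at 275 FPKM in DTA, against 65.3, 274, 33.0 and 9.55 in pOKSM, pBKSM, clone 1 and clone 3. Of 33 replication and mitosis genes, 1 lay above the range (3.03%, against 2.47% over all genes tested) and 0 lay below. DTA was the highest of the iNSC libraries in 3 of the 33 and the lowest in 13 (39.4%). Over all genes tested these shares were 29.2% highest and 29.6% lowest. The gene above was Mki67, at 96.6 FPKM in DTA, against 28.2 to 44.6 in the others. With values centred by transcript length Mki67 was no longer above the range, and its difference was 0.89 log2 units in place of 1.34.

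The genes outside the range were set beside the cortical and fibroblast libraries, which the rule did not use. Of the 306 genes above, DTA was within 2-fold of cNSC for 184 (60.1%), at least 2-fold above it for 95 and below it for 27, where over all 10009 genes the share within 2-fold was 90.9%. It was nearer to cNSC than the mean of the other 4 was for 216 (70.6%). Of the 135 genes below, DTA was within 2-fold of cNSC for 95 (70.4%) and nearer to it for 96 (71.1%). Over all 10009 genes DTA was nearer to cNSC for 6414 (64.1%). With quantile normalization the shares nearer to cNSC fell to 65.4% of the genes above and 64.3% of those below, near that share. DTA was nearer to MEF than the mean of the other 4 was for 128 of the genes above (41.8%) and 74 of those below (54.8%), against 48.9% over all. DTA was 2-fold or more above both cNSC and MEF for 73 of the 306, Hoxa9, Hoxc8, Grik3, Hoxc6 and Hoxc10 first by gap, and 2-fold or more below both for 18 of the 135, led by Mest, Fam111a, Fbln2, Rab3b and Ccbe1. For these genes DTA stood apart from all 6 other libraries.

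Differences also ran with transcript length. The median longest transcript was 4348 bases for genes above the range, 1795 for those below and 3445 for all tested. In genes with transcripts under 1 kb the median difference was -0.33 log2 units, and in those of 8 kb or more it was 0.45; against each of the 4 libraries these values were -0.40 to -0.24 and 0.43 to 0.49. The cNSC library had the same gradient against the other 4 lines, from -0.52 in the shortest to 0.49 in the longest genes. After DTA values were centred within length classes, a setting chosen after seeing the data, 243 of the 306 genes stayed above and 89 of the 135 stayed below the range, and 37 of the 44 limma calls held. By chromosome, the median difference was 0.44 log2 units for X and 0.26 for chromosome 6. It was 0.45, 0.67 and 0.66 for X against pOKSM, clone 1 and clone 3, but -0.04 against pBKSM, and chromosome 6 had -0.02 against pBKSM.

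**Figure D5:**
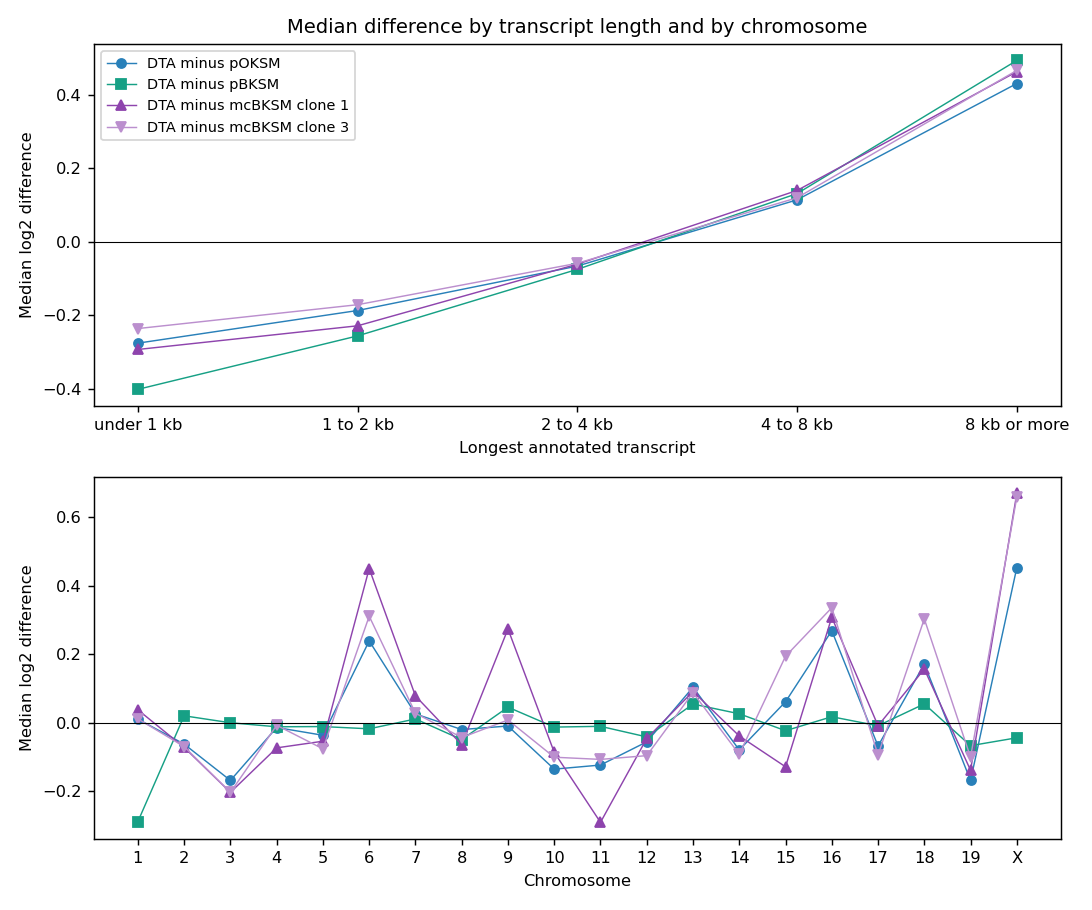
The median log2 difference of DTA minus each of the other 4 iNSC libraries is plotted by class of longest annotated transcript (top) and by chromosome (bottom). All 4 lines in the top panel climb from short to long transcripts; in the bottom panel chromosomes X and 6 stand up against pOKSM and both mcBKSM clones and lie near 0 against pBKSM.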

How the data were processed

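RNA sequencing was done on 7 mouse libraries, of which 5 iNSC libraries enter the comparison. The authors deposited FPKM per gene symbol for all 7 in 1 table, and each column matched a sample title. The submitters' processing notes name the build mm10 and, in no stated role, Cufflinks 2.2.1 with Cuffnorm, STAR 2.5.2b and R 3.3.2. Settings, and whether counting used strand, are not given in the sources. FPKM is relative to library size and does not show total RNA per cell. Counts were not analysed here.

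Values were taken as log2(FPKM + 1), which understates differences of low genes. Genes with at least 1 FPKM in any of the 5 libraries were tested with limma 3.58.1 (trend) in R 4.3.3 with Benjamini-Hochberg adjustment, with 3 residual degrees of freedom. The p-values rest on the spread between lines, which are not repeats of 1 line, and on the spread borrowed from similar genes. For Hoxc8 and Hoxc10 the SD of the other 4 libraries was 0, so their SE of 0.207 log2 units was borrowed only. Depth was estimated from the steps between low values, of which 75.5% to 78.9% lay within 0.1 of a whole multiple (20% by chance), so depths are approximate and cover counting error only. In 1 simulated table of the 12378 genes, all 5 libraries, DTA among them, were drawn from the mean and SD of the other 4. Only genes with a mean above 2 on the log2(FPKM + 1) scale were shifted. limma recovered 5 of 50 genes shifted by 1 log2 unit and 25 of 50 shifted by 2. It recovered 42 of 50 shifted by 3 and 38 of 50 by 4, with 3 false calls. These rates do not cover genes near 0 in the other 4, or a DTA library that varies unlike them. Chromosomes and promoter windows came from RefSeq (GRCm38.p6, 95.1% of symbols matched) and transcript lengths from GENCODE M21 (95.7%).

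The genes, the 38 lists written at first and the 2 added later were chosen with earlier results of these data known. Named genes were the factor genes, the 10 with the widest gap on each side, 2 on each side of the threshold, the 5 farthest from cNSC and MEF as well, and up to 4 members of each list outside the range, skipping names that start with Gm, Mir, Snor, Rpl or Rps or end in Rik where genes were ranked over the whole table; genes named beyond these were chosen after their values were seen. Alternatives covered the pseudocount, scaling, level filters, the model and leaving out each library.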

Additional observations from a re-analysis of the deposited data

How the results depend on the processing

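The count of genes called by limma (44) was 17 with a pseudocount of 0.1, 16 with a filter of 5 FPKM, 944 with no filter and 98 with no trend, and 0 to 3951 when 1 library was left out. Of the 44, 35 were called with quantile normalization, 37 with length centring, 44 with median-ratio scaling, 14 with a pseudocount of 0.1 and 0 to 44 when 1 library was left out. The counts above and below the range (306 and 135) were 68 and 25 with a gap of 4-fold, and 315 to 747 and 141 to 564 when 1 library was left out. With a minimum of 1 FPKM in the higher side they were 427 and 183. The share of genes above the range that lay nearer to cNSC was 70.6%, and 69.8% to 76.04% when 1 library was left out, highest without pBKSM. With quantile normalization it was 65.4%, and 64.3% for genes below the range. Both were near the 64.1% over all 10009 genes as deposited. Against pBKSM alone the median difference was -0.0438 log2 units on chromosome X and -0.0176 on chromosome 6, with the sign turned, 0.0176 on chromosome 16 and 0.0551 on chromosome 18, and against mcBKSM clone 3 alone 0.30 on chromosome 18. Eef2 turned sign with quantile normalization (0.26). The cause was not tested for any of these. No paired analysis was possible because the DTA group has 1 library and the numbers in the labels mark clones of another line. With 1 DTA library and pooled RNA, no spread within the line could be had, and genes near the 3-fragment floor cannot be told from unexpressed ones.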
